A study of Homo sapiens with 12 samples.

Results

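The genes described here encode integrins, cadherins and protocadherins, the main families of receptors by which cells hold on to matrix and to each other. They were chosen by symbol: rows starting with ITGA or ITGB (the binding proteins ITGB3BP and ITGB1BP1 left out), CDH followed by digits, or PCDH, without symbols that hold a hyphen. This gave 30 of the 12616 listed genes, made up of 17 integrin genes (12 alpha and 5 beta subunits), 5 cadherin genes and 8 protocadherin genes. RNA was measured in MeWo and SkMel28, both human cutaneous melanoma lines, in which every culture, controls included, carried a doxycycline (Dox) inducible short hairpin against MITF. Cells received 0 or 1 µg/ml Dox for 8 days, and 3 libraries were made per line and dose, giving 12 libraries in 4 groups (MeWo control, MeWo Dox, SkMel28 control and SkMel28 Dox). Per the labels MeWo was grown in EMEM and SkMel28 in RPMI, both with serum, whereas the study's methods name RPMI for its human melanoma lines other than HBL. Where the labels are right, comparisons between lines are also comparisons between media, and the 2 cannot be told apart. No line was given Dox without the hairpin here, and a change with Dox is the change with drug and hairpin together. No source states that the 3 libraries of a group came from separate cultures, so p-values measure a spread between libraries that may be technical. That spread was pooled over the 4 groups and drawn towards a trend over all genes. The SE of a gene is therefore the same in both lines and does not show which group was noisier.

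Integrins are pairs of 1 alpha and 1 beta subunit, and the alpha subunit largely sets the ligand: laminin, collagen, RGD-containing proteins such as fibronectin and vitronectin, or counter-receptors on other cells. Classical cadherins bind the same cadherin on the neighbouring cell and are tied to actin through catenins. E-cadherin (CDH1) and P-cadherin (CDH3) hold melanocytes to keratinocytes in the epidermis, and N-cadherin (CDH2) is the cadherin of neural and mesenchymal cells. Protocadherins are a large related family, best known from the nervous system.

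Values below are reads scaled by the authors to an effective library size ("normalised value"). Recovered totals were 2568187 to 3714608 reads per library, and 1 read was worth 0.278 to 0.389, so that a group with 3 reads or fewer in every library (at most 1.17) was treated as being at the floor. MITF, the target of the hairpin, was read first as a check of the labels. Its values were 657, 663 and 708 in MeWo control, 451, 354 and 371 in MeWo Dox, 861, 739 and 792 in SkMel28 control, and 575, 578 and 552 in SkMel28 Dox. Dox and control libraries did not overlap in either line, and MITF fell by 0.79 (SE 0.11) on the log2 scale in MeWo and by 0.49 (SE 0.11) in SkMel28. Of the melanocytic markers, 8 of 8 were listed, and their summed value was 13041 to 13237 in MeWo control, 6499 to 8195 in MeWo Dox; the SkMel28 controls had 11069 to 12365 and the SkMel28 Dox libraries 6667 to 6865. PMEL, with means of 7450, 3261, 6562 and 2569 in these groups, made up the largest part of the sum, and not all of the 8 were lower with Dox. DCT had means of 950 and 1790 and PAX3 of 24.8 and 34.4 in MeWo control and MeWo Dox, while TYR had 438 and 526, SOX10 257 and 309 and PAX3 56.9 and 62.0 in SkMel28 control and SkMel28 Dox. Of the other cell types looked for, 1 of 5 keratinocyte, 2 of 5 fibroblast, 0 of 5 endothelial and 0 of 7 leukocyte markers were listed. The fibroblast markers DCN and LUM summed to 41.5 to 47.8 in MeWo control and 9.85 to 19.2 in MeWo Dox. In SkMel28 they summed to 10.9 to 13.3 in control and 6.04 to 8.91 with Dox. Most of this was LUM, with MeWo means of 44.4 in control and 12.6 with Dox. DCN went the other way, with MeWo means of 1.23 and 1.92. KRT10, the keratinocyte marker listed, had means of 144, 154, 94.5 and 114 in MeWo control, MeWo Dox, SkMel28 control and SkMel28 Dox. The part of any of these markers in the results below was not tested. In bulk RNA, fewer cells with a transcript and less transcript per cell cannot be told apart.

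Of the 30 genes, 18 reached a mean of at least 10 in a group, 9 stayed below a mean of 5 in every group, and 10 were at the floor in at least 1 group. A group mean of 100 or more was reached by ITGB5, ITGA6, ITGB8, ITGAV and CDH2. QuantSeq reads the 3′ end of each transcript, so values are not scaled by transcript length.

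**Figure D1:**
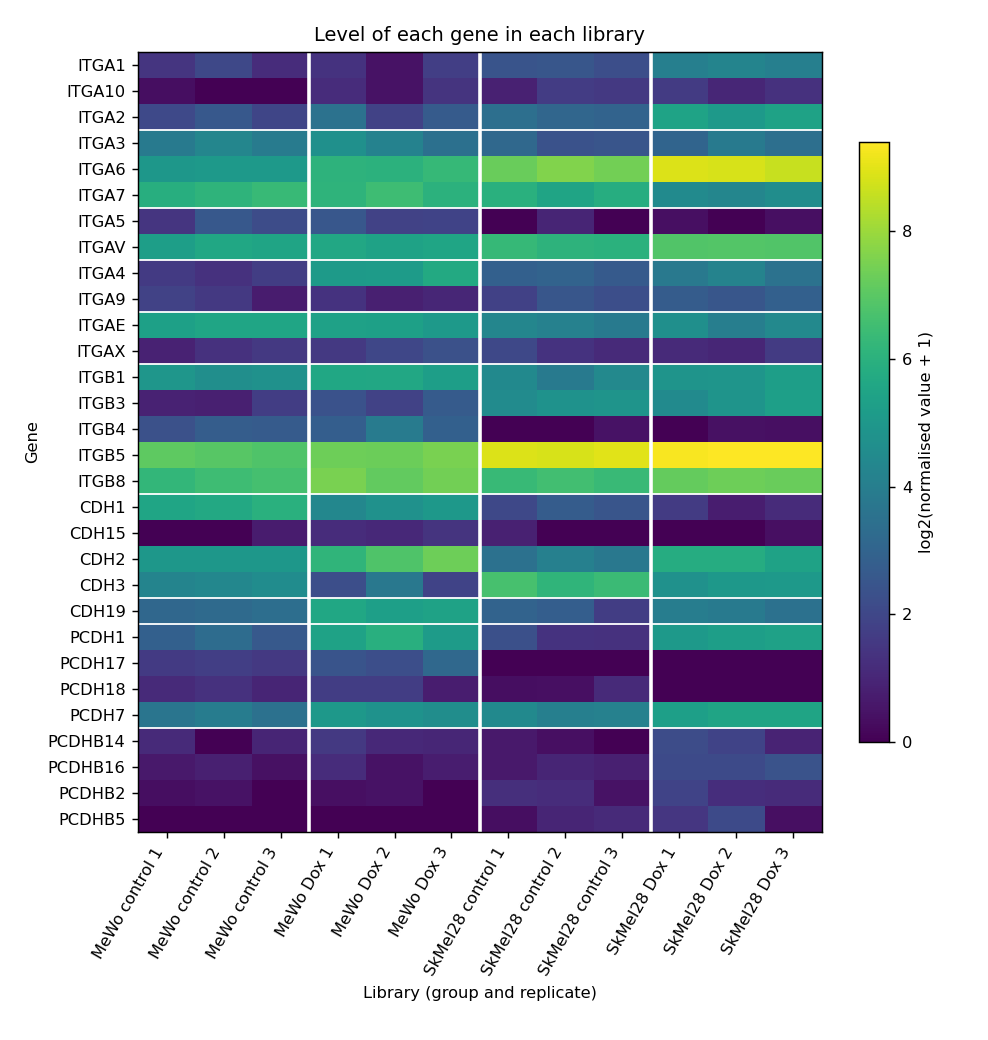
Level of each of the 30 genes (rows, ordered by family and role) in each of the 12 libraries (columns, grouped by line and Dox), as log2(normalised value + 1), with darker colours for lower values. The brightest rows are ITGB5 and ITGA6 in SkMel28, and PCDH17 is at 0 in all 6 SkMel28 libraries.

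Dox was compared with control within each line, on log2(value + 1) with limma, and a gene was called at a Benjamini-Hochberg adjusted p under 0.05 over all 12616 genes. In MeWo 14 of the 30 genes were called, 12 higher and 2 lower, where 16.7% of all genes were called, 8.58% higher and 8.12% lower. In SkMel28 17 of the 30 were called, 14 higher and 3 lower, where 10.9% of all genes were called, 5.88% higher and 5.04% lower. The 3 Dox values lay all above the 3 control values for 14 genes in MeWo (14.1% of all genes) and 14 in SkMel28 (16.1%), and all below for 2 (14.7%) and 4 (16.1%). The median log2 difference of the 30 genes was 0.50 in MeWo and 0.51 in SkMel28, and that of all genes 0.00 in MeWo and 0.003 in SkMel28.

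Called in both lines were 11 genes, each in the same direction. Shares of all genes called in both lines, in 1 line alone or in neither were not counted, also not by direction. Whether the agreement between lines is particular to the 30 genes is therefore not shown. Higher with Dox in both were the integrin genes ITGA4, ITGA6, ITGB1, ITGB5 and ITGB8, the cadherin genes CDH2 and CDH19, and the protocadherin genes PCDH1 and PCDH7. Lower with Dox in both were CDH1 and CDH3. In MeWo alone the test called PCDH17, CDH15 and ITGB3, all higher. In SkMel28 alone it called ITGA1, ITGA2, ITGAV, PCDHB14 and PCDHB16 higher and ITGA7 lower. CDH15 was above the floor only in MeWo Dox, and PCDHB14 and PCDHB16 had their highest means in SkMel28 Dox. The paper does not state a filter for the listed genes. If one was used, such genes may be listed only through the group where they are high. Their rises are then partly fixed by the listing. The remaining 10 genes were called in neither line, which does not show that they did not change. A call in 1 line does not show that the lines differ, and the difference between the changes (MeWo minus SkMel28, the interaction) was called for 4 of the 30 genes, where 7.09% of all genes were called. It was higher for ITGA4 and ITGA7 (3.71% of all genes) and lower for ITGA1 and ITGA2 (3.38%). These shares of all genes depended on single libraries: without MeWo Dox replicate 1, 3913 of all genes were called in MeWo in place of 2107 and 3115 for the interaction in place of 894, and 14 and 6 of the 30 genes. Over the fits without 1 library, the interaction called 449 to 3115 of all genes and 3 to 6 of the 30.

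When libraries were scaled to their spike-in RNAs instead, the median log2 difference of all genes moved to 0.22 in MeWo, to −0.08 in SkMel28 and to 0.30 for the interaction. All genes called in MeWo were then 2097 higher and 383 lower in place of 1082 and 1025, in SkMel28 394 and 533 in place of 742 and 636, and for the interaction 1362 and 160 in place of 468 and 426. Of the 30 genes, 13 were then called higher and 1 lower in MeWo and 11 higher and 3 lower in SkMel28, and the interaction calls became 4 higher and 1 lower in place of 2 and 2. None of the called differences of the 30 genes changed sign under any alternative tried.

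**Figure D2:**
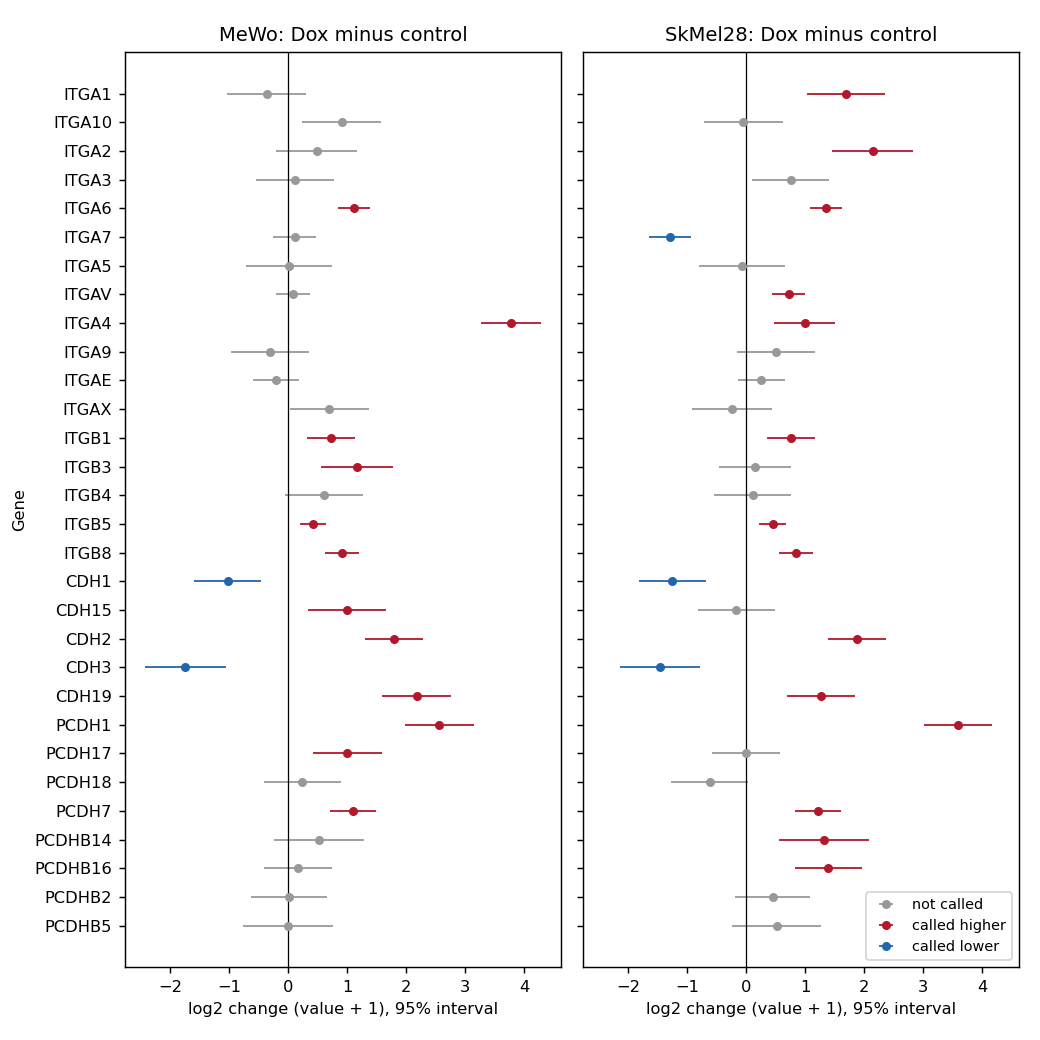
Log2 change with Dox (value + 1) of each of the 30 genes in MeWo (left) and SkMel28 (right), with 95% intervals from limma. Red points were called higher, blue points lower and grey points not called. PCDH1 has the largest rise in SkMel28 (3.59) and ITGA4 in MeWo (3.78), and CDH1 and CDH3 lie left of 0 in both panels.

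Among the type I classical cadherins, CDH1 and CDH3 fell and CDH2 rose in both lines. CDH1 (E-cadherin, chr16:68737292-68835537) was at 44.9, 50.1 and 61.9 in MeWo control and 19.5, 26.2 and 30.8 in MeWo Dox. In SkMel28 it was at 3.06, 5.71 and 4.60 in control and 2.08, 0.668 and 1.21 with Dox. No Dox value reached a control value of the same line, although SkMel28 held only a few reads of CDH1. The mean was 2.05-fold lower with Dox in MeWo (log2 −1.02, SE 0.27, adjusted p 0.0151) and 3.38-fold lower in SkMel28 (log2 −1.25, SE 0.27, adjusted p 0.00520). The MeWo call for CDH1 was lost without MeWo control replicate 3 (log2 −0.90), under spike-in scaling (log2 −0.75) and at a pseudocount of 0.1 (log2 −1.05, adjusted p 0.0589).

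CDH3 (P-cadherin) is the neighbour of CDH1 on the same strand, at chr16:68636189-68727468, and was the cadherin gene with the highest value in SkMel28 control. It was at 17.9, 19.4 and 22.7 in MeWo control and 3.83, 12.5 and 2.71 in MeWo Dox. The SkMel28 values were 99.1, 70.1 and 83.9 in control and 26.1, 31.4 and 32.0 with Dox. All Dox values were below all control values in both lines, and MeWo Dox replicate 2 stood above the other 2 Dox libraries. The mean was 3.15-fold lower with Dox in MeWo (log2 −1.75, SE 0.33, adjusted p 0.00117) and 2.83-fold lower in SkMel28 (log2 −1.46, SE 0.33, adjusted p 0.00667). Without MeWo Dox replicate 2 the MeWo fold was 6.11 (log2 −2.30). With the MeWo libraries fitted alone the adjusted p was 0.0978.

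CDH2 (N-cadherin) went the other way in both lines by about the same factor. It was at 30.2, 30.3 and 30.1 in MeWo control and 70.2, 111 and 157 in MeWo Dox. SkMel28 libraries held 10.3, 16.2 and 12.6 in control and 54.6, 55.5 and 41.1 with Dox. The MeWo Dox libraries were spread widely, yet the lowest was above all controls. CDH2 was 3.73-fold higher with Dox in MeWo (log2 1.79, SE 0.23, adjusted p 3.44e-05) and 3.86-fold higher in SkMel28 (log2 1.88, SE 0.23, adjusted p 3.39e-05). The interaction was −0.09 (95% interval −0.78 to 0.60).

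Summed over the 5 cadherin genes, the value was 101 to 125 in MeWo control and 142 to 234 in MeWo Dox, while the SkMel28 controls had 98.1 to 120 and the SkMel28 Dox libraries 84.9 to 101. The makeup of these sums shifted in both lines. CDH1 made up 44.6 to 49.6% of the cadherin reads in MeWo control and 13.2 to 13.9% in MeWo Dox, while CDH2 went from 24.2 to 30.0% to 49.3 to 67.2%. In SkMel28, CDH3 made up 71.5 to 82.4% in control and 26.7 to 37.7% with Dox, and CDH2 8.56 to 16.5% and 48.4 to 55.9%. CDH2 was thus the cadherin with the largest share in all 6 Dox libraries, whereas CDH1 held that place in the 3 MeWo control libraries and CDH3 in the 3 SkMel28 control libraries.

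**Figure D3:**
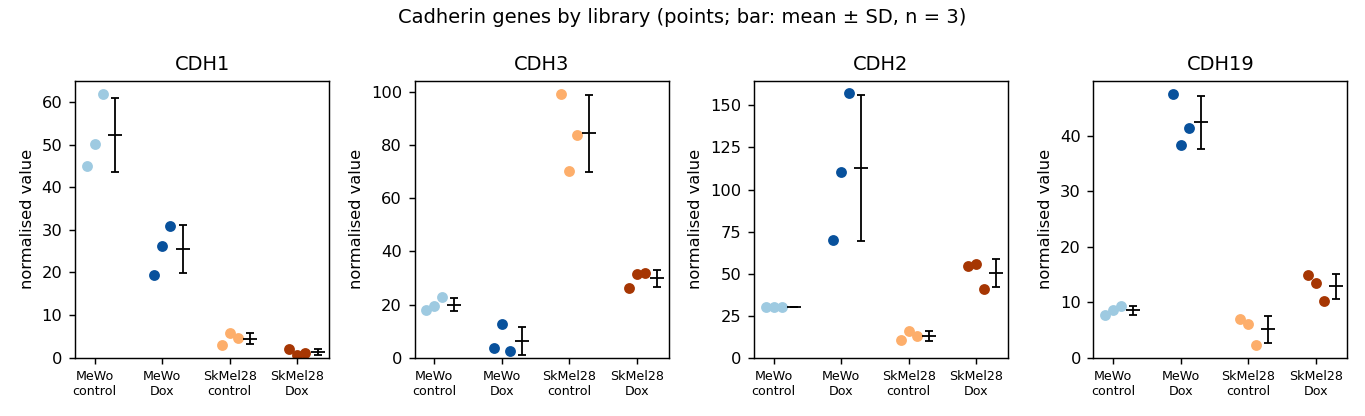
Normalised value of CDH1, CDH3, CDH2 and CDH19 in each library (points) with mean ± SD (bars, n = 3) for MeWo control, MeWo Dox, SkMel28 control and SkMel28 Dox. CDH1 and CDH3 are lower and CDH2 and CDH19 higher with Dox in both lines, and CDH1 is highest in MeWo and CDH3 in SkMel28.

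CDH19, the only type II classical cadherin listed, is known from Schwann cell precursors and other cells of neural crest origin. It was at 7.77, 8.55 and 9.39 in MeWo control and 47.6, 38.3 and 41.3 in MeWo Dox. Its SkMel28 values were 6.96, 6.03 and 2.30 in control and 14.8, 13.4 and 10.3 with Dox. The groups did not overlap in either line. CDH19 was 4.95-fold higher with Dox in MeWo (log2 2.18, SE 0.28, adjusted p 2.81e-05) and 2.52-fold higher in SkMel28 (log2 1.27, SE 0.28, adjusted p 0.00573), and the interaction was 0.91 (adjusted p 0.154). The SkMel28 call was lost with that line fitted alone (adjusted p 0.0682). For CDH19 the interaction was called under 3 of 21 alternatives. These were spike-in scaling (adjusted p 0.0464), a pseudocount of 5 (adjusted p 0.0309) and leaving out SkMel28 control replicate 3 (adjusted p 0.0238). CDH15 (M-cadherin of muscle) was at the floor in 3 of the 4 groups and at 1.28, 1.14 and 1.69 in MeWo Dox. Its MeWo call (adjusted p 0.0352) rested on these few reads and was lost with edgeR (adjusted p 0.113), with DESeq2 (adjusted p 0.254) and without MeWo control replicate 1 (log2 0.88) or 2 (0.88) or MeWo Dox replicate 2 (1.07) or 3 (0.90). This call was also lost at a pseudocount of 0.1 (adjusted p 0.0742) and with the MeWo libraries fitted alone (adjusted p 0.0604).

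Of the laminin-binding alpha subunits, ITGA6 rose in both lines, ITGA7 fell in SkMel28, and ITGA3 was called in neither. ITGA6 (chr2:172427354-172506459), whose product pairs with that of ITGB1 or ITGB4, was at 30.2, 32.2 and 32.4 in MeWo control and 66.4, 65.2 and 78.2 in MeWo Dox. In SkMel28 it was at 152, 194 and 169 in control and 480, 452 and 385 with Dox. All 4 groups were apart from each other. The rise was 2.21-fold in MeWo (log2 1.12, SE 0.13, adjusted p 9.36e-06) and 2.56-fold in SkMel28 (log2 1.35, SE 0.13, adjusted p 2.56e-06), with an interaction of −0.23 (95% interval −0.62 to 0.15). ITGA6 made up 14.1 to 15.9% of the integrin alpha reads in MeWo control and 21.8 to 26.2% in MeWo Dox, and 43.97 to 54.8% and 61.3 to 66.0% in SkMel28.

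ITGA7, the laminin receptor subunit of muscle, gave the opposite picture in SkMel28. It was at 57.9, 67.6 and 79.4 in MeWo control and 68.0, 88.3 and 65.0 in MeWo Dox, and these ranges overlapped. The SkMel28 values were 62.1, 43.5 and 56.3 in control and 21.4, 19.1 and 23.3 with Dox, all below the controls. The mean was 2.54-fold lower with Dox in SkMel28 (log2 −1.30, SE 0.17, adjusted p 6.96e-05), against a log2 difference of 0.11 (95% interval −0.25 to 0.47) in MeWo, and the interaction was 1.40 (SE 0.24, adjusted p 0.00213). Its locus overlaps BLOC1S1 on the opposite strand, and the counting strand is not stated in the sources used here. BLOC1S1 had log2 differences of 0.41 in MeWo and −0.13 in SkMel28, neither called. ITGA3 had group means of 15.3, 17.5, 5.60 and 10.1 in MeWo control, MeWo Dox, SkMel28 control and SkMel28 Dox, with log2 differences of 0.11 and 0.75 (adjusted p 0.852 and 0.143).

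The stretch of 250 bases before the RefSeq start site of ITGA6 and of PCDH1 is shown because these genes rose in both lines and hold matches to the motifs searched. Capitals mark matches to CACGTG (the E-box core bound by the MITF family) and to CACCTG or its reverse complement CAGGTG (the E2-box core bound by ZEB and SNAI factors). The stretches lie at chr2:172427086-172427335 on the plus strand and chr5:141869628-141869877 on the minus strand of GRCh38.p14, 5′ to 3′, and overlap 0 GENCODE exons. That of PCDH1 lies within the PCDH1 locus of GENCODE (chr5:141853090-141879246). It is thus upstream of the RefSeq start site used but not of the whole gene.
ITGA6: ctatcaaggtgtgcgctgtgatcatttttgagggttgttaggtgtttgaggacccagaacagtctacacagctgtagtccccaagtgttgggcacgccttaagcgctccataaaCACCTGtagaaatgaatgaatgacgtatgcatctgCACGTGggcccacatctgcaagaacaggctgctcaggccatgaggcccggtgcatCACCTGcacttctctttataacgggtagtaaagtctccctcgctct
PCDH1: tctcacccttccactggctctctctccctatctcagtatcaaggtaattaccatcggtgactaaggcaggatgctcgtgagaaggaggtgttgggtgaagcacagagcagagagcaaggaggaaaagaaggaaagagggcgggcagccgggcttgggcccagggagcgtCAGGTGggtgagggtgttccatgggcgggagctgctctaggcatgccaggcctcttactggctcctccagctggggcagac
In ITGA6 the CACGTG starts 101 bases before the start site and the CACCTG matches 136 and 46 bases before it. In PCDH1 the CAGGTG starts 81 bases before it. Promoter windows (250 bases before to 50 after the start site) were at hand for 21 of the 30 genes. None was at hand for CDH1, CDH3 or ITGA7, the genes called lower with Dox, which were thus not searched. The others without a window were CDH15, ITGA3, ITGA9, ITGAX, ITGB3 and ITGB4. On both strands CACGTG was in 1 of 21 (4.76%, against 10.48% of 9527 listed genes with a window). TCACGTGA, a longer form that contains CACGTG, was in 0 of 21 (2.02% of all). CACCTG or CAGGTG was in 2 of 21 (9.52%, against 17.4%), and CATGTG or CACATG, the M-box core, in 3 of 21 (14.3%, against 6.71%), namely ITGAE, PCDHB14 and PCDHB16. These are matches of letters, and binding was not measured here.

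The collagen-binding subunits ITGA1 and ITGA2, neighbours on the same strand of chromosome 5 (chr5:52787916-52959209 and chr5:52989340-53094779), rose in SkMel28. ITGA1 was at 4.45, 4.76 and 3.83 in SkMel28 control and 15.7, 17.7 and 15.4 with Dox. In MeWo it was at 1.73, 3.11 and 1.30 in control and 1.60, 0.379 and 2.37 with Dox. The SkMel28 groups were well apart and the MeWo groups overlapped. The rise in SkMel28 was 3.74-fold (log2 1.69, SE 0.32, adjusted p 0.00174), and the interaction was −2.06 (SE 0.45, adjusted p 0.0107). PELO lies on the same strand within the ITGA1 locus, so reads could have been split between them, and PELO had log2 differences of −0.13 in SkMel28 and −0.37 in MeWo, neither called.

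ITGA2 was at 9.74, 7.62 and 6.90 in SkMel28 control and 42.5, 32.8 and 41.7 with Dox. In MeWo it was at 3.17, 5.05 and 2.92 in control and 10.53, 2.65 and 5.42 with Dox, with Dox replicate 1 far above the other 2. The rise in SkMel28 was 4.82-fold (log2 2.14, SE 0.33, adjusted p 2.93e-04), and the groups were apart there but not in MeWo (log2 0.48, 95% interval −0.20 to 1.17). The interaction was −1.66 (SE 0.46, adjusted p 0.0388) and lost its call under 15 of 21 alternatives (log2 −2.07 to −1.24 and adjusted p 7.00e-04 to 0.11 over the 21), among them each fit without 1 of the 12 libraries except MeWo Dox replicate 1 and SkMel28 control replicate 1. ITGA10, the third collagen-binding gene listed, did not exceed a group mean of 1.66.

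ITGAV, whose product pairs with several beta subunits and binds RGD motifs in vitronectin and latent TGF-beta, was at 37.1, 47.0 and 44.05 in MeWo control and 49.2, 42.1 and 44.4 in MeWo Dox. SkMel28 libraries held 78.0, 67.0 and 63.2 in control and 115, 116 and 112 with Dox. Dox values lay above all controls in SkMel28 and among them in MeWo. ITGAV was 1.65-fold higher with Dox in SkMel28 (log2 0.72, SE 0.13, adjusted p 0.00174), a call lost under spike-in scaling (log2 0.62). The interaction was −0.64 (95% interval −1.03 to −0.24, adjusted p 0.0504), and it was called under 6 of 21 alternatives (adjusted p 0.00785 to 0.595 over the 21). ITGA5, the fibronectin receptor subunit, was at 1.73, 5.05 and 3.56 in MeWo control and 4.79, 2.65 and 2.71 in MeWo Dox, which overlapped. Its SkMel28 values were 0, 0.952 and 0 in control and 0.297, 0 and 0.302 with Dox, at the floor in both.

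ITGA4, whose product binds VCAM1 and fibronectin with that of ITGB1, had the largest rise of the 30 genes in MeWo. It was at 2.02, 1.55 and 2.27 in MeWo control and 33.5, 34.9 and 51.5 in MeWo Dox. In SkMel28 it was at 6.40, 6.98 and 5.36 in control and 12.8, 17.4 and 10.6 with Dox. Groups were apart in both lines. The rise was 20.5-fold in MeWo (log2 3.78, SE 0.24, adjusted p 1.10e-08) and 2.17-fold in SkMel28 (log2 0.99, SE 0.24, adjusted p 0.0129). The MeWo fold rests on control libraries of 7, 4 and 7 reads. Over 22 alternatives the MeWo log2 difference was 2.67 to 4.36. The interaction was 2.79 (SE 0.34, adjusted p 1.41e-04). The SkMel28 call was lost without SkMel28 control replicate 3 (log2 0.90) or SkMel28 Dox replicate 2 (log2 0.81). In MeWo ITGA4 made up 0.679 to 1.06% of the integrin alpha reads in control and 11.02 to 17.2% with Dox. ITGA9, the other member of the same subgroup, had group means of 1.73, 1.12, 3.70 and 5.56 in the order above and was called in neither line.

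**Figure D4:**
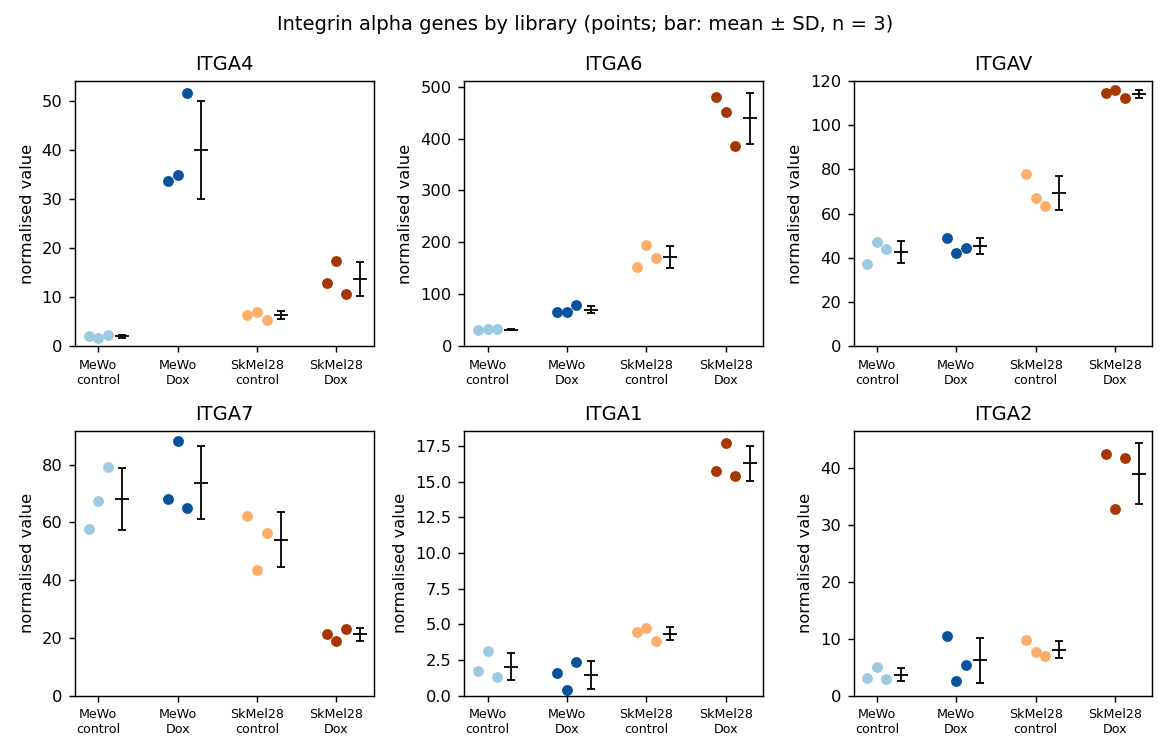
Normalised value of ITGA4, ITGA6, ITGAV, ITGA7, ITGA1 and ITGA2 in each library (points) with mean ± SD (bars, n = 3) for the 4 groups. ITGA6 is higher with Dox in both lines, ITGA4 reaches its highest level in MeWo Dox, and ITGA1, ITGA2, ITGAV and ITGA7 differ with Dox in SkMel28.

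ITGAE and ITGAX are best known from leukocytes, where their partners are the products of ITGB7 and ITGB2, neither of which is among the listed genes. ITGAE had means of 43.1, 37.4, 16.4 and 20.0 in the 4 groups and ITGAX of 1.45, 3.004, 1.93 and 1.44, and neither was called with Dox. Over the 12 alpha genes the summed value was 191 to 229 in MeWo control and 297 to 304 in MeWo Dox, while the SkMel28 controls had 330 to 354 and the SkMel28 Dox libraries 629 to 728. Of these 12 genes, 2 were called higher in MeWo and 0 lower, and 5 higher and 1 lower in SkMel28, where 8.58% of all genes were called higher and 8.12% lower in MeWo and 5.88% and 5.04% in SkMel28.

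Of the 5 beta genes, 4 were called higher in MeWo and 3 in SkMel28, with 0 called lower in either (all genes: 8.58% higher in MeWo and 5.88% in SkMel28). ITGB8, whose product pairs with ITGAV and binds latent TGF-beta, was at 73.7, 87.8 and 97.2 in MeWo control and 183, 138 and 168 in MeWo Dox. The SkMel28 values were 78.5, 93.0 and 82.4 in control and 143, 161 and 151 with Dox. Controls of both lines lay in 1 range and Dox libraries of both lines in a higher one. The rise was 1.89-fold in MeWo (log2 0.91, SE 0.14, adjusted p 1.48e-04) and 1.79-fold in SkMel28 (log2 0.84, SE 0.14, adjusted p 4.90e-04).

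ITGB5, the second vitronectin partner of ITGAV and the gene with the highest value of the 30 in every SkMel28 library, rose by a smaller factor. It was at 133, 124 and 110 in MeWo control and 159, 154 and 179.5 in MeWo Dox. SkMel28 libraries held 482, 451 and 501 in control and 628, 656 and 671 with Dox. The groups were apart in each line. The rise was 1.34-fold in MeWo (log2 0.42, SE 0.11, adjusted p 0.0117) and 1.36-fold in SkMel28 (log2 0.45, SE 0.11, adjusted p 0.0109). The MeWo call was lost without MeWo control replicate 3 (log2 0.35) or MeWo Dox replicate 3 (log2 0.36), and the SkMel28 call without SkMel28 Dox replicate 2 (log2 0.44) and under spike-in scaling (log2 0.35, adjusted p 0.282). Both calls were also lost without a mean-variance trend (adjusted p 0.0577 and 0.0593). The MeWo call was lost too with that line fitted alone (adjusted p 0.0800).

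ITGB1, the partner of most alpha subunits named here, was at 29.4, 23.7 and 25.9 in MeWo control and 47.2, 48.5 and 37.3 in MeWo Dox. Its SkMel28 values were 20.9, 13.6 and 20.7 in control and 27.9, 28.7 and 37.8 with Dox. Dox values were above the controls of the same line throughout. The rise was 1.68-fold in MeWo (log2 0.73, SE 0.19, adjusted p 0.0151) and 1.71-fold in SkMel28 (log2 0.75, SE 0.19, adjusted p 0.0164). The MeWo call was lost without MeWo control replicate 2 (log2 0.66) or 3 (log2 0.72) or MeWo Dox replicate 2 (log2 0.66). The SkMel28 call was lost without SkMel28 control replicate 2 (log2 0.56) or SkMel28 Dox replicate 3 (log2 0.62) and under spike-in scaling (log2 0.66). It was lost too with the SkMel28 libraries fitted alone (adjusted p 0.0605).

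ITGB3, the other vitronectin partner of ITGAV, was low in MeWo. It was at 0.864, 0.777 and 2.27 in MeWo control and 4.15, 2.65 and 5.42 in MeWo Dox. In SkMel28 it was at 22.0, 27.0 and 28.0 in control and 21.7, 28.1 and 38.1 with Dox, which overlapped. The MeWo means differed 3.13-fold (log2 1.16, SE 0.29, adjusted p 0.0107), a call lost without MeWo control replicate 2 (log2 1.00) or MeWo Dox replicate 3 (log2 0.97), at a pseudocount of 5 (adjusted p 0.0653) and with the line fitted alone (adjusted p 0.0989). Without MeWo control replicate 3 the fold was 4.97. With all libraries, the interaction was not called by the main test (1.00, adjusted p 0.136), but it was under spike-in scaling (1.30, adjusted p 0.0386). ITGB4, which pairs with ITGA6 in hemidesmosomes, was at 4.03, 5.83 and 5.51 in MeWo control and 6.06, 14.02 and 6.44 in MeWo Dox. These did not overlap, yet the difference was not called (log2 0.61, adjusted p 0.198). In SkMel28 ITGB4 was at 0, 0 and 0.383 in control and 0, 0.334 and 0.302 with Dox, at the floor in both. Its locus overlaps GALK1 on the opposite strand, with log2 differences of GALK1 of −0.15 in MeWo and −0.34 in SkMel28, neither called.

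Over the 5 beta genes the summed value was 241 to 242 in MeWo control and 357 to 399 in MeWo Dox, while the SkMel28 controls had 584 to 632 and the SkMel28 Dox libraries 821 to 899. ITGB5 alone made up 45.8 to 55.1% of these reads in MeWo control and 77.1 to 79.9% in SkMel28 control.

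Of the 8 protocadherin genes, 3 were called higher in MeWo (8.58% of all genes) and 4 in SkMel28 (5.88%), with 0 lower in either. PCDH1 (chr5:141853090-141879246) had the largest rise of the 30 genes in SkMel28. It was at 6.33, 8.94 and 5.18 in MeWo control and 41.8, 59.5 and 34.9 in MeWo Dox. The SkMel28 values were 3.90, 1.59 and 1.53 in control and 33.2, 37.8 and 40.8 with Dox. Dox libraries of both lines covered 1 range, far above both sets of controls. The rise was 6.66-fold in MeWo (log2 2.56, SE 0.27, adjusted p 4.38e-06) and 15.9-fold in SkMel28 (log2 3.59, SE 0.27, adjusted p 2.50e-07). The SkMel28 fold rests on control libraries of 14, 5 and 4 reads. Over 22 alternatives the SkMel28 log2 difference was 2.54 to 4.07. The interaction was −1.02 (95% interval −1.84 to −0.20, adjusted p 0.112), and it was called without SkMel28 control replicate 1 (−1.33, adjusted p 0.0376).

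PCDH7, a relative of PCDH1, was at 11.5, 14.4 and 10.4 in MeWo control and 31.0, 26.5 and 23.4 in MeWo Dox. SkMel28 libraries held 20.9, 15.5 and 16.5 in control and 38.9, 43.8 and 43.5 with Dox. The groups were apart in each line. The rise was 2.23-fold in MeWo (log2 1.098, SE 0.18, adjusted p 4.12e-04) and 2.38-fold in SkMel28 (log2 1.22, SE 0.18, adjusted p 2.41e-04). PCDH17 was at 2.02, 2.33 and 1.94 in MeWo control and 4.47, 3.79 and 8.13 in MeWo Dox, and at 0 in all 6 SkMel28 libraries. Its MeWo groups did not overlap (log2 1.01, SE 0.27, adjusted p 0.0179), but the call was lost without MeWo control replicate 1 (log2 0.99) or 3 (log2 0.97) or MeWo Dox replicate 3 (log2 0.73), with DESeq2 (adjusted p 0.130), at a pseudocount of 0.1 (adjusted p 0.137) and with the line fitted alone (adjusted p 0.0960).

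**Figure D5:**
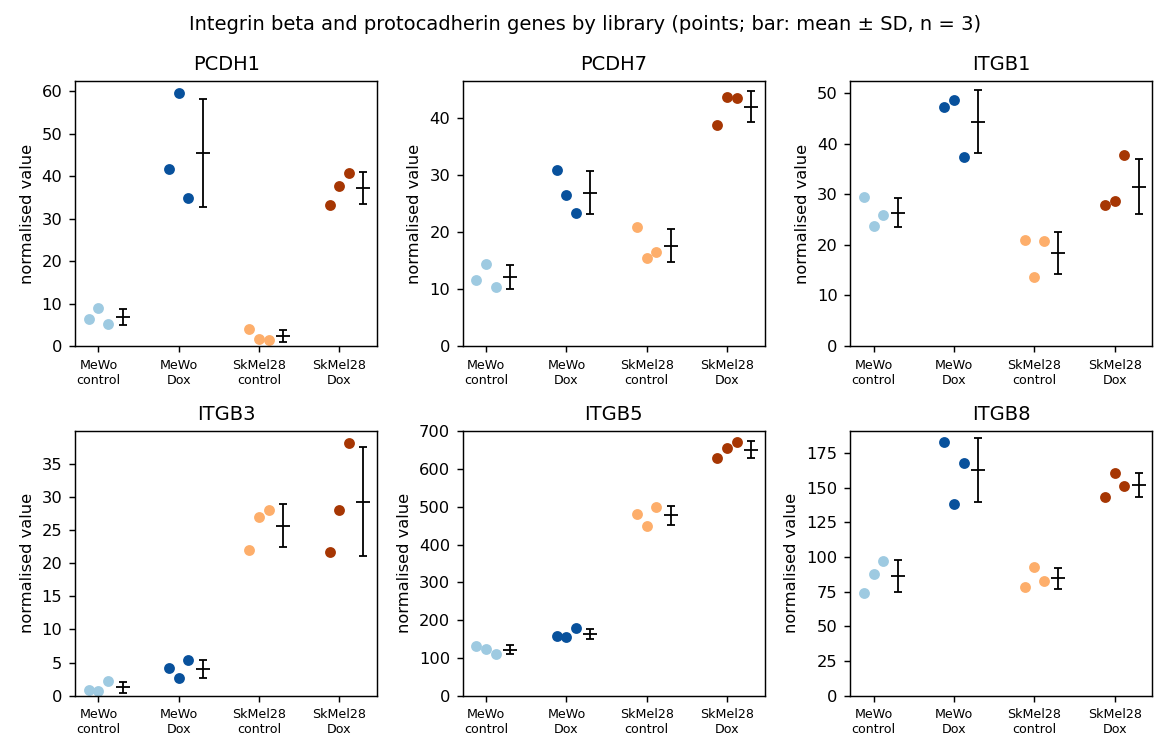
Normalised value of PCDH1, PCDH7, ITGB1, ITGB3, ITGB5 and ITGB8 in each library (points) with mean ± SD (bars, n = 3) for the 4 groups. PCDH1 and ITGB8 reach similar levels in both lines with Dox, and ITGB3 and ITGB5 are higher in SkMel28 than in MeWo.

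PCDH18 and the 4 clustered genes PCDHB2, PCDHB5, PCDHB14 and PCDHB16 did not exceed a group mean of 3.61. PCDHB16 was at 0.557, 0.952 and 0.766 in SkMel28 control, which is the floor, and 3.26, 3.34 and 4.23 with Dox, at least 3.69-fold higher over the floor (adjusted p 0.00247). PCDHB14 was also at the floor in SkMel28 control and at 3.56, 2.67 and 0.906 with Dox (adjusted p 0.0257). Its call was lost without SkMel28 control replicate 2 (log2 1.35) or 3 (1.15) and without SkMel28 Dox replicate 1 (1.06) or 2 (1.21), with DESeq2 (adjusted p 0.0680), at a pseudocount of 0.1 (adjusted p 0.0746) and with the line fitted alone (adjusted p 0.0549). The PCDHB genes are similar copies in 1 cluster, and how the authors counted reads with several matches is not given in the sources used here, so their separate values are uncertain. Summed over the 8 protocadherin genes the value was 19.8 to 28.4 in MeWo control and 68.8 to 94.0 in MeWo Dox, while the SkMel28 controls had 20.9 to 27.8 and the SkMel28 Dox libraries 83.4 to 92.2.

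The lines were next compared with each other, first without Dox. These comparisons use the same libraries as those above and are not independent of them. Between the controls 21 of the 30 genes were called, 11 higher and 10 lower in SkMel28, where 51.4% of all genes were called, 26.6% higher and 24.8% lower. ITGB3 had the largest difference, 19.7-fold higher in SkMel28 (log2 3.58, SE 0.29), or 31.3-fold without MeWo control replicate 3. Higher in SkMel28 too were ITGA6 by 5.43-fold (log2 2.40), CDH3 by 4.22-fold (log2 2.02) and ITGB5 by 3.90-fold (log2 1.96). CDH1 was 11.7-fold lower in SkMel28 (log2 −3.31, SE 0.27). The other 3 of the 8 largest differences were against SkMel28 groups at the floor, with ITGB4 at least 5.23-fold, ITGA5 at least 3.52-fold and PCDH17 at least 2.14-fold lower. ITGB8 had a log2 difference of −0.02 (95% interval −0.31 to 0.26).

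With Dox in both lines, 24 of the 30 genes were called, 12 in each direction, where 53.6% of all genes were called, 28.0% higher and 25.6% lower in SkMel28. ITGA4 was 3.21-fold higher in SkMel28 than in MeWo without Dox (log2 1.30, SE 0.24, adjusted p 2.31e-04) and 2.94-fold lower with it (log2 −1.49, SE 0.24, adjusted p 5.68e-05). PCDH1 was 2.91-fold lower in SkMel28 without Dox (log2 −1.27, SE 0.27, adjusted p 8.96e-04), and with Dox the log2 difference was −0.25 (95% interval −0.83 to 0.33). ITGA7, not called between the controls (log2 −0.34), was 3.47-fold lower in SkMel28 with Dox (log2 −1.74, SE 0.17). ITGA1 and ITGA2 were 11.2-fold and 6.28-fold higher in SkMel28 with Dox (log2 2.91 and 2.62), with ITGA2 at 9.66-fold without MeWo Dox replicate 1. CDH1 and ITGA6 kept their difference between lines at both doses, with CDH1 19.3-fold lower and ITGA6 6.28-fold higher in SkMel28 with Dox.

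Proteins that work with these receptors were read from 4 lists of partners and regulators, whose counts stand beside 8.58% of all genes called higher and 8.12% lower in MeWo and 5.88% and 5.04% in SkMel28. Of 40 integrin adaptors and focal adhesion proteins, 35 were listed, of which 6 were called higher and 8 lower in MeWo and 2 higher and 9 lower in SkMel28. The kinase SRC was 3.37-fold (log2 1.53) and TNS2, a tensin that links beta subunits to actin, 2.09-fold higher with Dox in MeWo (log2 1.04). SRC was at 6.05, 2.72 and 5.51 in MeWo control and 8.62, 20.5 and 19.0 in MeWo Dox, with the first Dox library well below the others. LIMS2, a partner of integrin-linked kinase, was 4.17-fold lower (log2 −1.94) and TNS1 2.71-fold lower (log2 −1.40) in MeWo. In SkMel28 TNS3 was 2.18-fold higher (log2 1.09) and VCL, which encodes vinculin, 1.41-fold higher (log2 0.49), and LPXN was 2.22-fold lower (log2 −1.12) and PARVB 1.83-fold lower (log2 −0.86). TNS3 was lower in MeWo (log2 −0.77, adjusted p 0.00400), with an interaction of −1.86 (adjusted p 1.80e-04).

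Beside the same shares of all genes, of 18 symbols of cadherin-catenin partners 14 were listed. AFDN and MLLT4 among them are symbols of the same gene, listed as MLLT4. Of the 14, 5 were called higher and 1 lower in MeWo, and 1 higher and 1 lower in SkMel28. CTNNB1, which encodes beta-catenin, had a log2 difference of −0.37 in MeWo (adjusted p 0.0153) and −0.37 in SkMel28 (adjusted p 0.0207), and both calls were lost under spike-in scaling (log2 −0.09 and −0.46). CTNNA1, alpha-catenin, was higher in SkMel28 (log2 0.49, adjusted p 0.00650) and in MeWo (log2 0.64, adjusted p 4.90e-04), with the SkMel28 call lost under spike-in scaling (log2 0.39). CTNNA2 was 3.92-fold (log2 1.66) and the plakophilin gene PKP3 2.92-fold higher in MeWo (log2 1.43). Of 25 other cadherin superfamily genes, 8 were listed, of which 0 were called in MeWo and 2 higher in SkMel28, CELSR2 (log2 0.74) and CLSTN1 (log2 0.66), both lost under spike-in scaling. Of 9 repressors and switch factors of cadherin genes, 7 were listed. In MeWo 2 were higher and 1 lower, among them ZEB2 (log2 0.68, adjusted p 0.0163) and SNAI2 (log2 −0.85, adjusted p 0.00693, lost under spike-in scaling at log2 −0.59), and in SkMel28 0 were called (ZEB2 log2 0.48, SNAI2 0.05). Under spike-in scaling the 64 listed partners were called 19 higher and 2 lower in MeWo in place of 13 and 10, and 1 higher and 10 lower in SkMel28 in place of 5 and 10.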

How the data were processed

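RNA of 12 libraries (MeWo and SkMel28, 0 or 1 µg/ml Dox, 3 libraries each) was read by 3′ end sequencing with the QuantSeq Forward kit. The deposited values are a normalised signal and not raw counts: the authors divided the reads of each feature by an edgeR effective library size. The submitters' processing notes name FastQC 0.11.7, cutadapt 2.8, STAR 2.5.1b, edgeR and hg38, while the counting tool, annotation and strand are not given in the sources used here. In every library 100% of values were whole multiples of 1 step per library (tolerance 0.001 reads), from which whole reads were recovered, 2568187 to 3714608 per library. Of 12683 features, 67 spike-ins were set aside and 12616 genes tested. Bounds and floors (3 reads per library) cover counting error only.

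The value + 1 was analysed on the log2 scale with limma 3.58.1 in R 4.3.3 (lmFit over 4 group means and all 12 libraries, eBayes with a mean-variance trend, two-sided, Benjamini-Hochberg adjustment over 12616 genes, called at an adjusted p under 0.05). Fold changes are ratios of group means of the values, and log2 differences understate the change of low genes. Alternatives were edgeR 4.0.16 and DESeq2 1.42.0 run on recovered reads, scaling to the upper quartile or to the spike-ins, a pseudocount of 0.1 or 5, only genes with a value of 5 or more in 3 libraries, no trend, a replicate block, each line alone, and each library left out. On the recovered reads edgeR called 2043 genes in MeWo and 1419 in SkMel28. The fit was tested on simulated data. Values of every library are given for genes called in a Dox comparison or the interaction with a mean of at least 5 in a group, and for the 8 largest called differences between controls, which gave 19 genes, while PCDHB14, PCDHB16 and CDH15 were added after their values were seen. From each partner list the 2 largest called rises and 2 largest called falls per line are named among genes with a mean of at least 10 and no overlap, and TNS3 and CTNNA1 in MeWo and ZEB2 and SNAI2 in SkMel28 were added likewise. Members and lists were chosen with earlier results of these data known. Loci are from GENCODE release 44 (hg38), which held all 30 symbols, and start site windows from RefSeq.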

Additional observations from a re-analysis of the deposited data

Results flagged for a closer look

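The change with Dox differed between the lines, by the limma test of the difference itself (MeWo change minus SkMel28 change, log2, 3 libraries a group), for 4 of the 30 genes. ITGA4 differed by 2.79, as it rose more in MeWo, with all 3 Dox libraries above all 3 controls in each line. ITGA7 differed by 1.40, with all 3 SkMel28 Dox libraries below the 3 SkMel28 controls and overlapping groups in MeWo. ITGA1 differed by −2.06 and ITGA2 by −1.66, each with all 3 SkMel28 Dox libraries above the controls and overlapping groups in MeWo. The ITGA1 call was lost at a pseudocount of 0.1 (adjusted p 0.053), and the ITGA2 call under 15 of 21 alternatives.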

How the results depend on the processing

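None of the 1695 recomputed values of called differences changed sign, and of the 1444 recomputed values of uncalled ones 57 did, all from differences of at most 0.36 on the log2 scale. Under every alternative in which they were tested, 7 of the 14 MeWo calls, 11 of the 17 SkMel28 calls, 2 of the 4 interaction calls, 15 of the 21 calls between controls and 21 of the 24 calls between Dox groups held. With the MeWo libraries fitted alone, 9 of the 30 genes, 11 partners and 813 of all genes were called in MeWo. Fewer libraries entered that fit, and its spread was that of MeWo alone. Over all genes, libraries of the same group correlated at 0.96 to 0.976 in MeWo Dox and at 0.979 or more in every other group. For the interaction, 2 of the 30 were called at a pseudocount of 0.1 and 7 at 5. The counts of all genes at these pseudocounts are not given here, so whether all genes moved alike is not shown. Under spike-in scaling the interaction called 1522 of all genes, and without a trend 554 of all genes and 5 partners. MITF was −0.49 in SkMel28 without a trend (adjusted p 0.050) and 0.32 between the Dox groups under spike-in scaling (adjusted p 0.145), no longer called. Apart from what a setting's own construction shows, the cause was not tested.

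Without single libraries, all genes called ranged from 1281 to 3913 in MeWo, 784 to 2042 in SkMel28 and 449 to 3115 for the interaction (in MeWo and the interaction highest without MeWo Dox replicate 1), and partners called from 15 to 37, 7 to 19 and 3 to 23. The 30 genes gave 10 to 14 calls in MeWo, 14 to 17 in SkMel28 and 3 to 6 for the interaction. MITF ranged from −0.41 to −0.24 for the interaction and from 0.18 to 0.29 between controls, both called without MeWo Dox replicate 1.

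No pairing of libraries by replicate number was seen. Correlations of deviations were −0.181 to 0.159 for same-numbered libraries and −0.199 to 0.231 for the others. With 3 libraries a group, this cannot exclude a shared culture or day. With a replicate block 14 of the 30 genes were called in MeWo, 17 in SkMel28 and 4 for the interaction, the same genes as without it. The counts of all genes with the block are not given here. Low genes are limited by depth, since 1 read is worth 0.278 to 0.389.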
